A study of Mus musculus with 6 samples.

Results

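The genes described here are the bone morphogenetic protein (BMP) ligands made in the liver (Bmp2, Bmp5, Bmp6, Bmp10 and Gdf2), the inhibitor of DNA binding genes Id1, Id2 and Id3, and the SMAD genes Smad6 and Smad9. They were chosen by symbol, and each matched 1 row of the deposited count table, so that the set holds 10 of its 55802 rows. All 10 passed the filter on low counts and were among the 15579 genes tested. The libraries measured messenger RNA in livers of wild-type C57BL/6 mice. The 3 control libraries are from mice given oil and the 3 treated libraries from mice given carbon tetrachloride (CCl4), a solvent used in rodents to injure and scar the liver after hepatocytes have turned it into a radical. Dose, duration, age and sex are not stated in the labels, nor do they say whether each library stands for its own animal. The p-values therefore rest on the scatter among these libraries alone, which could be technical. Alb, which encodes serum albumin and marks hepatocytes, averaged 71800.2 CPM (counts per 1000000) in controls and 73971 CPM in the CCl4 livers. The library totals ran from 18929972 to 20042731 counts. In a principal component analysis the first component (77.2% of the variance) separated the groups, and the second (8.68%) put CCl4 replicate 3 away from the other two CCl4 libraries.

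BMPs are secreted proteins that bring together type I and type II serine/threonine kinase receptors on the cell surface. The type I receptors then phosphorylate SMAD1, SMAD5 and SMAD9, which join SMAD4 and enter the nucleus. The ID genes and Smad6 are among their best known targets. In the liver, Bmp2 and Bmp6 come chiefly from sinusoidal endothelial cells and tell hepatocytes to make the iron hormone hepcidin, while Gdf2 (the gene of BMP9) and Bmp10 come from stellate cells and act on endothelial cells through the receptor ALK1.

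The CCl4 livers held more Gdf2 and Id3 messenger RNA and less Id2 and Smad9, and the other 6 genes did not pass the test. The changes were small. Smad9 fell to 0.563 of its control level (95% interval 0.456 to 0.697), Id2 to 0.828 (0.745 to 0.921), while Id3 rose 1.33-fold (1.13 to 1.56) and Gdf2 1.23-fold (1.04 to 1.45). That is 4 of 10 members called at a Benjamini-Hochberg adjusted p under 0.05 in edgeR's quasi-likelihood test, where 41.3% of all genes tested were called. The members called higher were 2 of 10 (21.2% of all genes) and those called lower 2 of 10 (20.1%). The groups did not overlap for the same 4 members, against 54% of all genes. The median size of the log2 fold change was 0.285 over the members and 0.277 over all genes, and the median change itself was -0.146 and 0.000564. The count and the size of the changes were thus near the background of the whole table. Levels below are counts per 1000000 scaled by TMM (CPM), and changes are log2 fold changes of CCl4 over control.

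**Figure D1:**
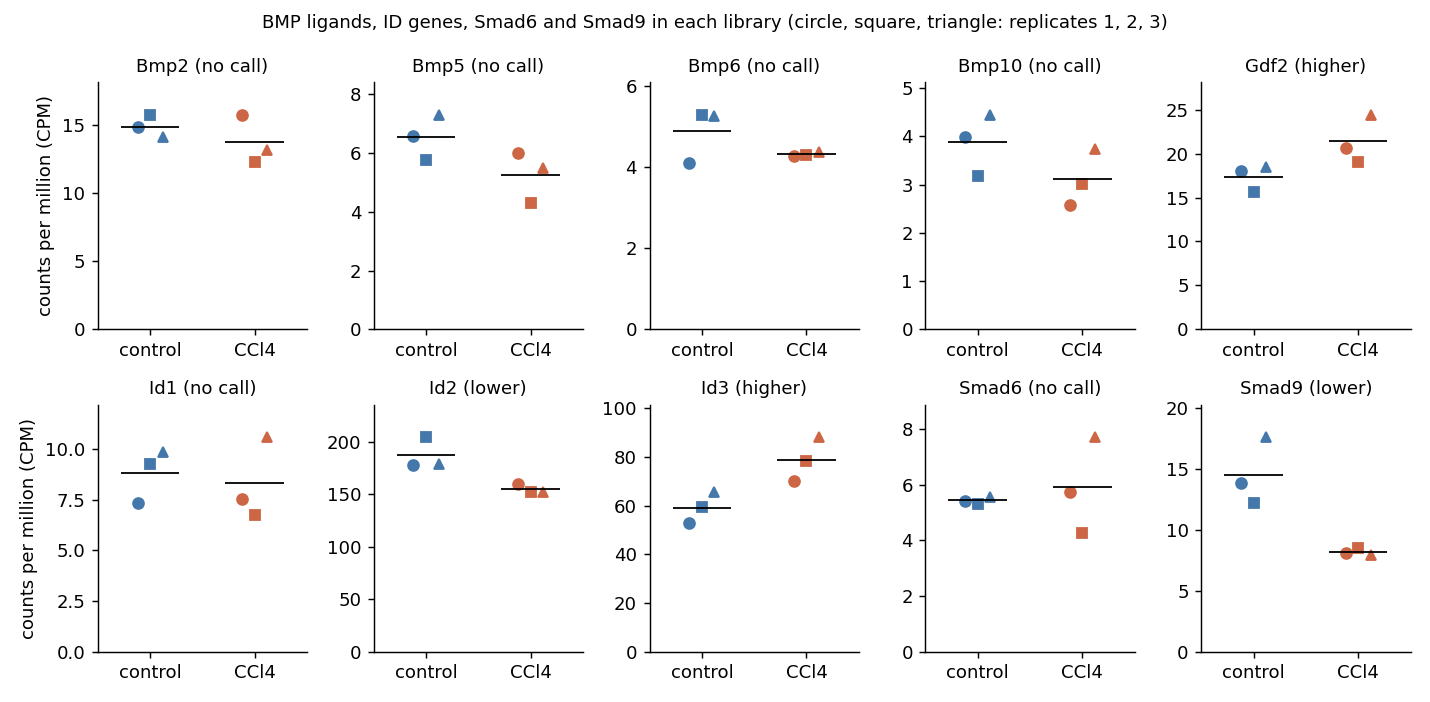
Level of each of the 10 genes in every library, in CPM on a linear axis from 0, with controls in blue, CCl4 in orange and the group mean as a bar. The groups separate for Gdf2, Id3, Id2 and Smad9, and the points of the other 6 genes overlap between groups.

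Among the ligands, Gdf2 was the most abundant per length of transcript and the only one of the 5 that was called. It stood at 18.0, 15.7 and 18.5 CPM in controls 1 to 3 and at 20.7, 19.1 and 24.5 CPM in CCl4 replicates 1 to 3. Every CCl4 library lay above every control, and CCl4 replicate 3 was the highest. The change was 0.30 (SE 0.107, adjusted p = 0.0496). The call ended on leaving out control replicate 1 (0.32, adjusted p = 0.0960), control replicate 2 (0.22, adjusted p = 0.157), control replicate 3 (0.34, adjusted p = 0.0704), CCl4 replicate 1 (0.33, adjusted p = 0.0763) or CCl4 replicate 3 (0.19, adjusted p = 0.140). DESeq2 (adjusted p = 0.0890) and limma-voom (adjusted p = 0.0646) did not call it either, although its direction was the same in all 14 alternatives.

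Bmp10, the ligand closest to Gdf2 and a user of the same receptor, stood at 3.99, 3.19 and 4.45 CPM in controls and at 2.57, 3.02 and 3.73 CPM in CCl4 livers. The groups overlapped, and the change of -0.32 was not called (95% interval -0.76 to 0.12, adjusted p = 0.225). Bmp10 rested on 51 to 84 counts per library, and 51 counts carry an exact Poisson interval of 38.0 to 67.1, which covers counting error only. The ratio of Gdf2 to Bmp10 counts within a library does not depend on scaling. It was 4.52, 4.92 and 4.16 in controls and 8.04, 6.33 and 6.55 in CCl4 livers, so that all CCl4 libraries had more Gdf2 for each Bmp10 count than any control. This ratio was chosen after the values were seen and was not tested.

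Bmp2, one of the inducers of hepcidin, stood at 14.9, 15.7 and 14.1 CPM in controls and 15.8, 12.3 and 13.2 CPM in CCl4 livers. CCl4 replicate 1 held the highest value and CCl4 replicate 2 the lowest, so the groups overlapped (-0.12, 95% interval -0.36 to 0.12, adjusted p = 0.416). Its sign changed when library size alone was used for scaling (0.03). Bmp6, the ligand whose loss causes iron overload in mice, stood at 4.10, 5.30 and 5.25 CPM in controls and 4.28, 4.30 and 4.37 CPM in CCl4 livers. The 3 CCl4 values were close together and lay inside the control range (-0.18, 95% interval -0.51 to 0.15, adjusted p = 0.372). The ratio of Bmp2 to Bmp6 counts was 3.09 ± 0.480 in controls (mean ± SD, n = 3) and 3.18 ± 0.441 in CCl4 livers. Bmp5 stood at 6.60, 5.78 and 7.32 CPM in controls and 6.00, 4.30 and 5.50 CPM in CCl4 livers, with overlapping groups (-0.32, 95% interval -0.67 to 0.03, adjusted p = 0.134). In the GENCODE annotation 1878 of the 4025 exon bases of Bmp5 and 224 of the 3900 of Bmp6 are shared with other genes, and the sources used here do not give the strand setting of the counting, so reads of these neighbours cannot be told apart from theirs.

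Of 11 other BMP and related ligand genes, 4 were tested, 2 were called higher and 0 lower, where 21.2% of all genes tested were called higher. Gdf6, a BMP-like ligand, rose from 0.890 ± 0.128 to 2.57 ± 0.0760 CPM (1.52, SE 0.216, adjusted p = 5.03e-04). Gdf3 was called higher from 1, 0 and 1 counts in controls to 23, 13 and 15 counts in CCl4 livers, too few in controls for a fold change to be given. It passed the filter on low counts through the CCl4 libraries alone, so it could not have been called lower. With the stricter filter, which Gdf3 did not pass, 1 of these ligands was called higher and 0 lower. Bmp4, which many mesenchymal cells make, showed 3.42 ± 0.434 CPM in controls against 3.56 ± 0.453 CPM after CCl4, with no call (adjusted p = 0.817). Among ligands under the filter, Bmp8b had 2, 1 and 5 counts in controls and 8, 14 and 16 in CCl4 livers.

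Of the 3 ID genes, Id3 was called higher, Id2 was called lower and Id1 was not called. The ID genes encode helix-loop-helix proteins that lack the basic DNA-binding region and hold E proteins and other partners away from DNA. Id3 stood at 53.0, 59.4 and 65.5 CPM in controls and 70.0, 78.2 and 88.3 CPM in CCl4 livers. The groups were apart, and CCl4 replicate 3 was the highest (0.41, SE 0.101, adjusted p = 0.0120). Id3 kept its call and direction in all 14 alternatives, with changes of 0.32 to 0.56. Id2 was the most abundant member, at 177, 204 and 179 CPM in controls and 160.0, 152 and 152 CPM in CCl4 livers. All 3 CCl4 libraries lay below all controls (-0.27, SE 0.0681, adjusted p = 0.0103). This call was lost with upper quartile scaling (-0.19, adjusted p = 0.0590) and with library size alone (-0.13, adjusted p = 0.171).

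Id1, the ID gene most often used as a readout of BMP signalling, stood at 7.35, 9.29 and 9.86 CPM in controls and 7.56, 6.78 and 10.6 CPM in CCl4 livers. The lowest and the highest of the 6 values were both in the CCl4 group, and there was no call (-0.09, 95% interval -0.50 to 0.33, adjusted p = 0.736). Its sign changed in 3 of the 14 alternatives, where it was at most 0.06 and was not called. Within each library, Id3 counts over Id2 counts came to 0.299, 0.291 and 0.366 in controls and 0.438, 0.514 and 0.581 in CCl4 livers. Id3 counts over Id1 counts were 7.21, 6.39 and 6.64 in controls and 9.26, 11.5 and 8.32 in CCl4 livers. Both ratios were higher in every CCl4 library than in any control, whatever the scaling. For Id3 over Id2 this had to follow, since Id3 lay above and Id2 below all controls in the CCl4 livers. Neither ratio was planned before the values were seen, and neither was tested. Of 8 genes of ID partners and related factors, 7 were tested and 1 was called, which is 14.3%, against 41.3% of all genes tested. The gene called was Tcf4, an E protein gene, which rose from 33.3 ± 1.61 to 45.4 ± 2.71 CPM (0.44, SE 0.0662, adjusted p = 6.69e-04). Id4, which stands in both this list and the target list, was not called, with 1.93 ± 0.528 CPM in controls against 2.93 ± 0.229 CPM after CCl4 (adjusted p = 0.0564).

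Smad9 showed the largest change of the 10 genes. It encodes SMAD9, also called SMAD8, a receptor-activated SMAD. It stood at 13.8, 12.2 and 17.6 CPM in controls and 8.06, 8.51 and 7.96 CPM in CCl4 livers. The CCl4 values were close together and all below the controls, of which replicate 3 was the highest (-0.83, SE 0.136, adjusted p = 0.00115). The size of this change exceeded that of 82.6% of the genes tested, and the call held in all 14 alternatives (-0.95 to -0.67). Smad6 encodes the inhibitory SMAD that blocks BMP receptors. It stood at 5.43, 5.30 and 5.57 CPM in controls and 5.75, 4.25 and 7.71 CPM in CCl4 livers. The control values were close and the CCl4 values lay on both sides of them (0.12, 95% interval -0.32 to 0.57, adjusted p = 0.658). The sign of Smad6 turned without CCl4 replicate 3 (-0.12), again without a call.

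The windows before the RefSeq start sites are shown for 3 of the 4 called members, Smad9, Id2 and Gdf2, up to the first base that GENCODE places in an exon. For Smad9 and Gdf2 these bases lie before the gene. For Id2 they lie inside it, in an intron of a longer GENCODE transcript whose first base is at chr12:25097140, 798 bases before the first one printed. The sequences come from RefSeq (GRCm38.p6), written 5′ to 3′ on the gene's strand, with motif matches in capitals. The sources used here do not name the build behind the counts. Smad9 is read from chr3:54755332-54755581 (plus strand), Id2 from chr12:25096254-25096342 (minus strand) and Gdf2 from chr14:33940789-33941038 (plus strand). Smad6, at chr9:64022045-64022074 (minus strand), is shown for 30 bases around its start.
Smad9: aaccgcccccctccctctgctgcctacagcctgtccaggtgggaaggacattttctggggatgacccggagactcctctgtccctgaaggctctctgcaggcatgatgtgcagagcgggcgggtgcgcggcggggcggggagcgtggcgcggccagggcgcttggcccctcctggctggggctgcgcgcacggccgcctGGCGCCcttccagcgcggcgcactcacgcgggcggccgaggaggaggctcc
Id2: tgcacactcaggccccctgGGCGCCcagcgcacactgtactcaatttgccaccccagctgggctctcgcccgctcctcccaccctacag
Gdf2: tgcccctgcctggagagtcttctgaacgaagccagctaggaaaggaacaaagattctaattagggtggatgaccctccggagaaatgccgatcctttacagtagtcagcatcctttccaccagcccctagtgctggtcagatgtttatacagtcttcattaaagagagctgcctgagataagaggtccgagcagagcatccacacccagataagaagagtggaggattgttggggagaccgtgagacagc
Smad6: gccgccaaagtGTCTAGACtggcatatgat

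A set of 3 motifs from BMP and SMAD elements was searched on both strands in windows of 300 bases (250 before and 50 after the start), which were on hand for 8 of the 10 members. GGCGCC, the GC-rich part of BMP response elements, reads the same on both strands and was found in 2 members, Smad9 (first base at -51) and Id2 (-231). It was present in 11.9% of all 32851 windows. GTCTAG, part of the SMAD palindrome, was found among the members on both strands in Smad6 alone, where the matches at -4 and -2 overlap, and in 8.37% of all windows. CAGACA, a long form of the SMAD box, was found in Bmp5 alone (-135) and in 21% of all windows, and its reverse complement can share letters with GTCTAG. The match in Id2 is thus intronic in that longer transcript. A match is a description of the letters and nothing was tested.

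Compared per length of exons, in CPM per kb of annotated exon, the control levels ran from Id2 (76.6 ± 6.22, SD, n = 3) through Id3 (33.1 ± 3.49), Id1 (7.61 ± 1.14), Gdf2 (5.83 ± 0.509), Bmp2 (4.19 ± 0.228), Smad9 (2.70 ± 0.520), Smad6 (1.69 ± 0.0423), Bmp5 (1.63 ± 0.191) and Bmp6 (1.25 ± 0.174) to Bmp10 (0.864 ± 0.143). Of neighbours in that order, only Smad6 and Bmp5 overlapped between control libraries. In CCl4 livers Gdf2 (7.16 ± 0.925) stood level with Id1 (7.17 ± 1.75). Smad9 (1.52 ± 0.0542) stood below Smad6 (1.84 ± 0.541), whose libraries overlapped it. Id2 (63.5 ± 1.86) and Id3 (44.0 ± 5.11) stayed the most abundant, and Bmp10 (0.692 ± 0.131) the least.

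Around the members, 58 of 82 other genes in the BMP pathway lists were tested, and 12 were called higher and 12 lower. That is 41.4% called, with a median change of -0.02, which is again near the 41.3% of all genes. Among those called higher, Gdf3, Rgma, Bmper and Hey1 passed the filter on low counts only through the CCl4 libraries. The lists cover receptors, intracellular proteins, secreted modulators, targets, hepcidin control, ID partners and other ligands, and some genes stand in more than 1 list.

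**Figure D2:**
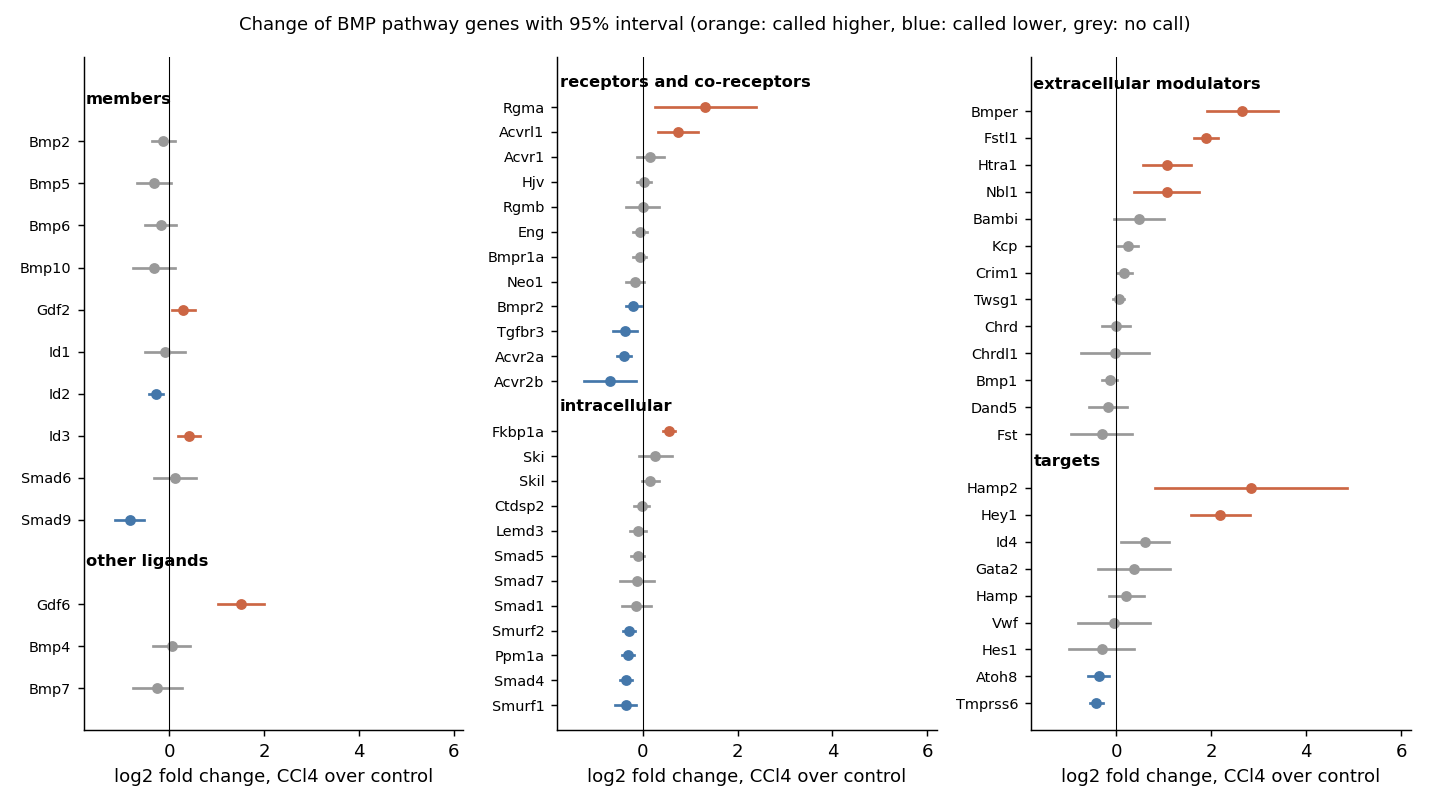
Log2 fold change of CCl4 over control with its 95% interval for the members and the other tested pathway genes reported here, by role, with genes called higher in orange, called lower in blue and not called in grey. Gdf3, near 0 counts in controls, is not drawn. Most points lie close to 0, and Hamp2, Bmper and Hey1 lie farthest to the right.

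Of 13 receptor and co-receptor genes, 12 were tested, 2 were called higher and 4 lower (median -0.06). That is 50% called, against 41.3% of all genes tested. The lower calls came to 1 with upper quartile scaling, with library size alone, and on leaving out CCl4 replicate 2 or either of controls 1 and 3, and to 2 with the stricter filter, DESeq2 or limma-voom. Acvrl1, which encodes ALK1, the type I receptor of Gdf2 and Bmp10, stood at 4.42, 5.46 and 3.13 CPM in controls and 7.06, 6.78 and 7.96 CPM in CCl4 livers. The groups were apart (0.75, SE 0.187, adjusted p = 0.0105), and the call held in all 14 alternatives. Eng, the endothelial co-receptor of ALK1, was not called, with 62.7 ± 1.11 CPM in controls against 60.3 ± 4.84 CPM after CCl4 (adjusted p = 0.530). The other receptor gene called higher was Rgma, a co-receptor of the repulsive guidance family with 4 to 26 counts per library. With 5, 9 and 4 counts in controls, it passed the filter on low counts only through the CCl4 libraries, so it could not have been called lower. It rose by 1.32 on the log2 scale (adjusted p = 0.0496), but leaving out CCl4 replicate 2 (adjusted p = 0.0566), CCl4 replicate 3 (0.180), control replicate 1 (0.146) or control replicate 3 (0.157) ended the call, as did the replicate block (0.0612), DESeq2 (0.112) and limma-voom (0.0668).

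The 3 type II receptor genes of the list were called lower. Acvr2a went from 35.0 ± 2.01 to 26.7 ± 0.991 CPM (-0.39, SE 0.0663, adjusted p = 0.00138) in groups that were apart. Bmpr2, the BMP type II receptor, stood at 53.8, 47.1 and 52.5 CPM in controls and 46.3, 45.1 and 42.7 CPM in CCl4 livers (-0.19, SE 0.0662, adjusted p = 0.0400). The call of Bmpr2 was lost with upper quartile scaling (-0.11, adjusted p = 0.212) and library size alone (-0.05, adjusted p = 0.572), with the stricter filter (0.0506), DESeq2 (0.114) and limma-voom (0.0505), and without any library but control replicate 2 (adjusted p from 0.0564 without CCl4 replicate 1, through 0.0909 without CCl4 replicate 2, 0.0922 without CCl4 replicate 3 and 0.105 without control replicate 3, to 0.132 without control replicate 1). Acvr2b (-0.69, adjusted p = 0.0473) lost its call when CCl4 replicate 2 (adjusted p = 0.106), CCl4 replicate 3 (0.0971), control replicate 1 (0.143) or control replicate 3 (0.145) was left out. It was not called with upper quartile scaling (0.0762), library size alone (0.0937), the stricter filter (0.0527), DESeq2 (0.0637) or limma-voom (0.0550) either. Tgfbr3, the co-receptor betaglycan (-0.38, adjusted p = 0.0227), lost it when CCl4 replicate 2 (adjusted p = 0.0682), control replicate 1 (0.0806) or control replicate 3 (0.0820) was left out, and also with upper quartile scaling (-0.29, adjusted p = 0.0611) and library size alone (-0.23, adjusted p = 0.121). Bmpr1a, the type I receptor that mediates hepcidin induction, stood at 44.1 ± 2.54 and 42.3 ± 1.29 CPM (adjusted p = 0.469). Acvr1, another type I receptor, was also without a call (adjusted p = 0.334), at 17.2 ± 1.84 and 19.3 ± 3.18 CPM.

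Of 14 genes of intracellular transduction, Smad6 and Smad9 included, 1 was called higher and 5 lower (median -0.11). That is 42.9% called, near the 41.3% of all genes tested. Smad1 (21.1 ± 4.11 and 19.2 ± 1.21 CPM, adjusted p = 0.447) and Smad5 (46.4 ± 2.34 and 43.0 ± 1.42 CPM, adjusted p = 0.174), the partners of Smad9, were not called, though Smad1 was called lower without control replicate 2 (-0.29, adjusted p = 0.0396). Smad4, the shared partner of all receptor-activated SMADs, went from 36.7 ± 0.571 to 28.8 ± 0.818 CPM (-0.35, SE 0.0568, adjusted p = 0.00108), with groups apart. The ubiquitin ligase genes Smurf1 (-0.36, adjusted p = 0.0139) and Smurf2 (-0.29, adjusted p = 0.00300) and the phosphatase gene Ppm1a (-0.31, adjusted p = 0.00200) were the other genes called lower. Smurf1 lost its call without CCl4 replicate 2 (adjusted p = 0.0586) and with library size alone (adjusted p = 0.112). Fkbp1a, whose product FKBP12 binds type I receptors, rose from 47.4 ± 1.10 to 69.4 ± 3.55 CPM (0.55, SE 0.0569, adjusted p = 8.79e-05). Smad7, an inhibitory SMAD and BMP target, stood at 11.1 ± 2.23 and 10.3 ± 1.48 CPM (adjusted p = 0.576).

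Of 22 secreted and membrane modulators, 14 were tested, 4 were called higher and 1 lower (median 0.11). That is 35.7% called, against 41.3% of all genes tested. With library size alone 7 were called higher, and without control replicate 2 there were 2 called lower. Fstl1, a secreted follistatin-like glycoprotein, stood at 10.1, 10.6 and 8.06 CPM in controls and 32.4, 35.8 and 39.1 CPM in CCl4 livers (1.90, SE 0.113, adjusted p = 5.01e-06). Bmper, a secreted BMP-binding protein, rose from 0.463 ± 0.251 to 2.95 ± 0.458 CPM (2.65, SE 0.332, adjusted p = 2.50e-04). With 14, 7 and 5 counts in controls, Bmper passed the filter on low counts only through the CCl4 libraries, so it could not have been called lower. The protease gene Htra1 (1.07, adjusted p = 0.00429) and the antagonist gene Nbl1 (1.06, adjusted p = 0.0201) were also higher. For Nbl1, leaving out CCl4 replicate 1 (adjusted p = 0.0567), CCl4 replicate 2 (0.0751), control replicate 2 (0.0697) or control replicate 3 (0.0786) ended the call. Noggin, Nog, had at most 1 count in any library. Bambi, a decoy receptor and target, stood at 4.03 ± 0.223 and 5.62 ± 1.96 CPM (adjusted p = 0.127), and was called higher without CCl4 replicate 2 (0.67, adjusted p = 0.0386).

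Of 18 target genes, 11 were tested, 2 were called higher and 2 lower (median 0.21), of which Hamp2 and Atoh8 depended on the settings named with them. That is 36.4% called, against 41.3% of all genes tested. Hey1, a transcriptional repressor induced by BMP9 and by Notch, rose from 0.499 ± 0.113 to 2.30 ± 0.388 CPM (2.19, SE 0.277, adjusted p = 2.66e-04). With 11, 10 and 7 counts in controls, Hey1 passed the filter on low counts only through the CCl4 libraries, so it could not have been called lower. Atoh8, a transcription factor gene of the hepcidin pathway, went from 18.0 ± 0.999 to 13.9 ± 1.42 CPM (-0.37, SE 0.0960, adjusted p = 0.0116), a call that ended under library size alone (-0.23, adjusted p = 0.0746). Of 12 genes of hepcidin control, 11 were tested, and 0 were called higher and 5 lower (median -0.17): Tmprss6, Acvr2a, Tfr2, Atoh8 and Bmpr2. That is 45.5% called, against 41.3% of all genes tested called in either direction and 20.1% called lower. Of these genes, Acvr2a and Bmpr2 were already counted among the receptors, and Tmprss6 and Atoh8 among the targets. With library size alone 1 was called higher and 2 lower, and 1 was called higher with upper quartile scaling or without CCl4 replicate 3. Tmprss6, the protease that cleaves the co-receptor hemojuvelin, went from 496 ± 25.0 to 370.2 ± 14.7 CPM (-0.42, SE 0.0634, adjusted p = 6.76e-04), and its call held in all 14 alternatives. Tfr2, the second transferrin receptor (-0.30, adjusted p = 0.00665), was not called under library size alone (-0.15, adjusted p = 0.0750). Hjv, hemojuvelin itself, stood at 105 ± 4.92 and 107 ± 7.23 CPM (adjusted p = 0.763).

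Hamp, the hepcidin gene, stood at 232, 255 and 259.7 CPM in controls and 348, 291 and 224 CPM in CCl4 livers. CCl4 replicates 1 and 2 were the highest of all libraries and CCl4 replicate 3 the lowest, and there was no call (0.21, adjusted p = 0.319). Without CCl4 replicate 3, Hamp was called higher (0.36, adjusted p = 0.00560). Hamp2, its close copy in the mouse, stood at 7.93, 6.27 and 8.27 CPM in controls and 27.5, 28.3 and 106 CPM in CCl4 livers. Here CCl4 replicate 3 was by far the highest (2.85, SE 0.753, adjusted p = 0.0422), and without it the change was 1.90 (adjusted p = 4.17e-07). The call of Hamp2 did not survive leaving out CCl4 replicate 2 (adjusted p = 0.0502) or any control replicate (0.113 without the first, 0.133 without the second, 0.122 without the third), nor did it hold with no filter on low counts (0.0775) or with the replicate block (0.0508). Hamp and Hamp2 are close copies, and the sources used here do not say how reads that match both were counted, so the value of each alone is uncertain.

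In a whole liver, fewer cells of a type and less RNA per cell cannot be told apart, so the marker levels of the cells that make or receive these ligands are given beside them. For each marker list, the share of all genes tested was 21.2% called higher and 20.1% called lower. Of 17 sinusoidal endothelial markers tested, 7 were called higher and 2 lower. Those higher came to 4 on leaving out control 3, CCl4 replicate 1 or CCl4 replicate 3, and those lower to 1 on leaving out any of controls 1 and 2 and CCl4 replicates 2 and 3, and also with upper quartile scaling, library size alone, the stricter filter or DESeq2. Their summed level was 537.3 to 590.1 CPM in controls and 589.8 to 658.3 CPM in CCl4 livers (median change 0.25), with Stab2, a scavenger receptor of these cells, at 70.5 ± 1.98 and 67.1 ± 3.11 CPM (adjusted p = 0.334). Maf, the member of smallest adjusted p, rose by 0.45 (adjusted p = 4.49e-04). Of 16 pan-endothelial and capillary markers, 1 was called, Cd34 (1.66, adjusted p = 3.12e-04), and their sum was 236.9 to 255.5 CPM in controls and 243.2 to 274.7 CPM in CCl4 livers. In that second list 4 were called higher with upper quartile scaling, 8 with library size alone and 2 without control replicate 2. The sinusoidal sums overlapped through control replicate 2 (590.1) and CCl4 replicate 2 (589.8) alone. The part of these cells in the values of Bmp2 and Bmp6 was not tested.

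Of 17 markers of quiescent stellate cells, the source of Gdf2 and Bmp10, 6 were called higher and 5 lower. Their sum was 414.8 to 463.6 CPM in controls and 417.6 to 470.9 CPM in CCl4 livers. Ecm1, which encodes an extracellular matrix protein, was the most abundant of them in controls and went from 98.3 ± 9.12 to 43.5 ± 2.94 CPM (-1.18, adjusted p = 9.70e-06). Reln, the most abundant over all 6 libraries, stood at 67.9 ± 10.5 and 82.7 ± 13.6 CPM (adjusted p = 0.183), but was called higher with the replicate block (adjusted p = 0.00458). Of 16 activated stellate cell and myofibroblast markers, 13 were called higher and 0 lower. Their sum went from 136.4 to 203.6 CPM in controls to 930.7 to 976.5 CPM in CCl4 livers, with Lox (3.05, adjusted p = 1.03e-05) and Col3a1 (2.84, adjusted p = 2.89e-05) among them. Timp1, another of those called, had 4, 6 and 3 counts in controls. It passed the filter on low counts only through the CCl4 libraries, so it could not have been called lower. Gdf2, Id3, Acvrl1, Fstl1 and Bmper were higher in the same libraries, and the part of these cells in those changes was not tested.

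The marker lists of the other liver cells were read in the same way, beside 21.2% of all genes tested called higher and 20.1% lower. Of 12 markers of recruited macrophages, 11 were called higher and 0 lower (sum 128.5 to 182.8 CPM in controls and 841.3 to 874.5 CPM in CCl4 livers), with Trem2 up by 4.96 (adjusted p = 8.30e-07) and Lyz2 by 2.10 (adjusted p = 9.64e-06). Some of those called had few counts in controls: Trem2 (14, 6 and 16), Gpnmb (18, 6 and 9), Itgam (13, 8 and 7) and Mmp12 (18, 5 and 11). These passed the filter on low counts only through the CCl4 libraries, so they could not have been called lower. Of 12 Kupffer cell markers, 6 were called higher and 3 lower (616.3 to 788.7 and 740.6 to 823.6 CPM), with C1qc at 1.33 (adjusted p = 1.46e-05) and C6 at -1.54 (adjusted p = 0.00307). Of 8 bile duct markers tested, 6 were called higher and 0 lower (30.8 to 39.1 and 52.5 to 61.9 CPM), with Krt7 at 2.00 (adjusted p = 5.30e-04). Cldn4, another of those called, had 5, 5 and 4 counts in controls and was limited by the filter in the same way. Of 12 hepatocyte markers, 3 were called higher and 3 lower, among them Ahsg at 0.40 (adjusted p = 9.48e-04). Those lower came to 0 with upper quartile scaling, library size alone or without control replicate 3, and to 1 without CCl4 replicate 2. Those higher came to 5 with library size alone and to 1 without control replicate 1. Alb changed by 0.04 (adjusted p = 0.655), and was called higher with library size alone (0.19, adjusted p = 0.0446). Of 5 red cell genes tested, 4 were called higher and 1 lower, Alas2 (-0.90, adjusted p = 1.32e-04). Those higher came to 0 with no filter on low counts and without control replicate 1 or any 1 of the CCl4 replicates, and to 2 with the replicate block. Hbb-bs rose by 1.10 (adjusted p = 0.0398), a call that ended on leaving out control replicate 1 (adjusted p = 0.106), CCl4 replicate 1 (0.0929), CCl4 replicate 2 (0.0996) or CCl4 replicate 3 (0.129), with no filter (0.0960) and with the replicate block (0.0644). The part of these cells in the changes of the members was not tested.

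**Figure D3:**
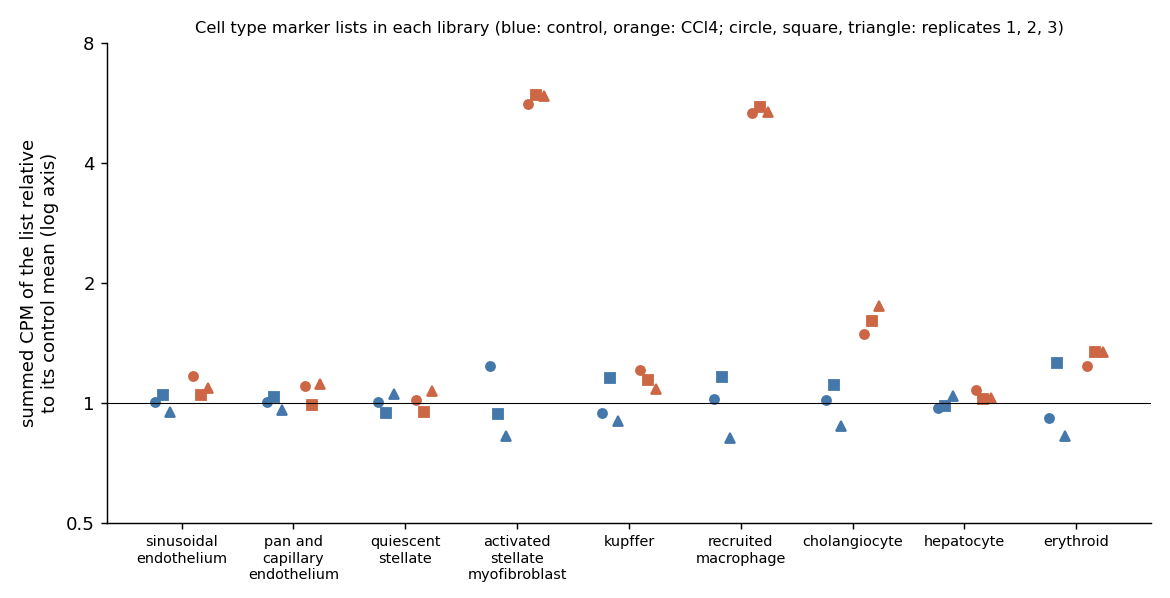
Summed CPM of each cell type marker list in every library, relative to the mean of the controls, on a log axis, with controls in blue and CCl4 in orange. The lists of activated stellate cells and of recruited macrophages separate the groups widely, while the endothelial and quiescent stellate lists lie much closer to 1 in both groups.

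The calls of Id3 and Smad9 held in every alternative tried, those of Gdf2 and Id2 did not, and the other 6 members were called in none.

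**Figure D4:**
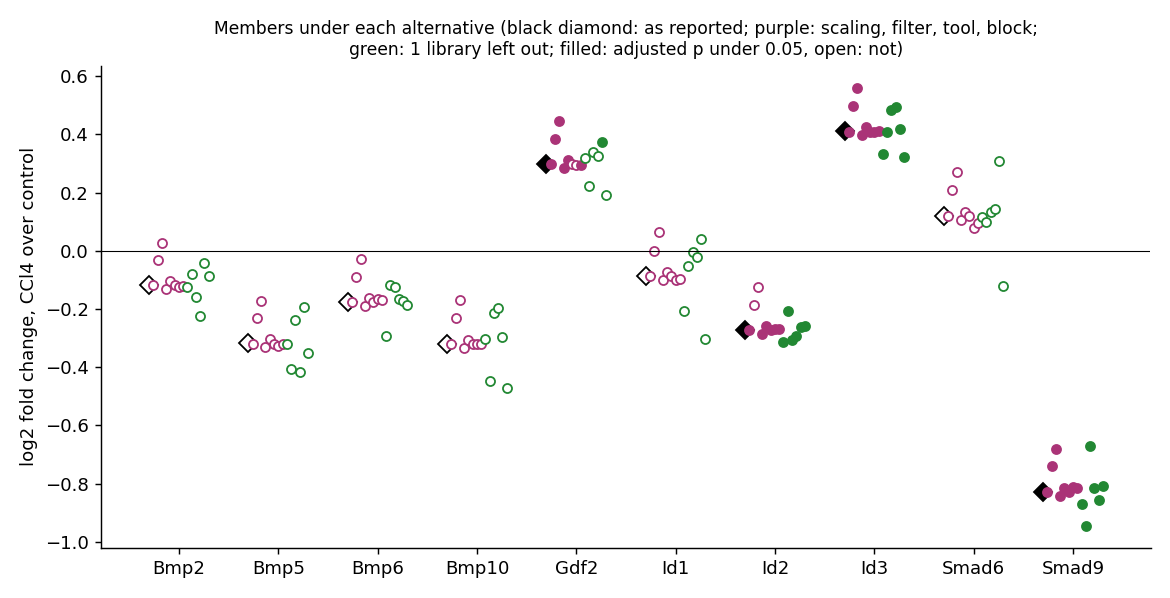
Log2 fold change of each member as reported (black diamond), under 8 other scalings, filters, tools and the replicate block (purple), and with 1 library left out (green), filled where the adjusted p is under 0.05. Smad9 and Id3 keep filled points on 1 side of 0, Gdf2 has filled and open points, and Bmp2, Id1 and Smad6 have open points on both sides of 0.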

How the data were processed

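The members and gene lists were chosen with earlier results of these data known. Per the series' design text, reads were trimmed, filtered and aligned with HISAT2, and per the submitters' processing notes they were counted with featureCounts. The sources used here give no versions, genome build or strand setting. The deposited table holds raw counts for each gene. Rows without an Ensembl identifier held 0.543 to 0.679% of counts. Symbols came from GENCODE M21.

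Counts were tested with edgeR 4.0.16 (R 4.3.3): filterByExpr, TMM, glmQLFit (robust) and glmQLFTest over 15579 genes, with Benjamini-Hochberg adjustment over all of them. The standard error is taken as log2 fold change over the root of F. The code was tested on simulated data. Replicates correlated at 0.985 to 0.993 in log CPM, and no pair agreed within sampling noise. Alternatives were other scalings, filters, DESeq2 1.42.0, limma 3.58.1 (voom), a replicate block and each library left out. The rule for named genes took the members, 16 fixed pathway genes, up to 2 called genes per direction of each pathway list, and the called gene of smallest adjusted p and the most abundant gene of each marker list (55 genes). Acvr2b, Smurf1, Smurf2, Ppm1a, Htra1, Nbl1, Tfr2 and Ecm1, and the low-count ligand Bmp8b, were named after their values were seen. So were Gpnmb, Itgam, Mmp12, Timp1 and Cldn4, which are given for their low control counts. Some genes of the lists are counted but not reported by name here.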

Additional observations from a re-analysis of the deposited data

How the results depend on the processing

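Of the 10 members, 3 to 4 were called in every alternative. The count called lower was 1 in place of 2 with upper quartile scaling and 1 with library size alone, where Id2 lost its call. The count called higher was 1 in place of 2 in DESeq2 and 1 in limma-voom, and ran from 1 to 2 with 1 library left out, where Gdf2 lost its call. Library size alone moved the median change of all genes to 0.147 and upper quartile scaling to 0.0872, from 0.000564. With library size alone 4824 of all genes were called higher and 1676 lower, with upper quartile scaling 4103 and 2177, against 3303 and 3124. Of the other pathway genes, 18 were called higher and 6 lower with library size alone, and 17 and 9 with upper quartile scaling, against 12 and 12. Members with GTCTAG went from 1 to 0 when only the 250 bases before the start were searched, since the Smad6 match crosses the start.

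Same-numbered libraries deviated together only weakly (correlations 0.0483, 0.00396 and 0.0635), so the numbers were not taken as pairs. Pairs of unlike number ran from -0.0803 to 0.0365, below the same-numbered values of replicates 1 and 3. Control replicate 2 was closer to CCl4 replicate 1, at 0.0365, than to CCl4 replicate 2. With the replicate block 6416 genes were called, 3298 higher and 3118 lower, and 4 members. Of the other pathway genes, 10 were called higher and 12 lower. Counts under 10 in at least 1 library limit Gdf3, Rgma, Bmper and Hey1 among the called pathway genes, and Bmp10 had the fewest counts of the members.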
